A study of Bos taurus with 6 samples.

Results

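A set of 9 genes that act in the control of cell division was followed in bovine fat precursor cells carrying extra bta-miR-484. They were *CDKN1A*, *CDKN1B*, *CDKN1C*, *CDKN2C* and *CDKN2D*, which encode inhibitors of cyclin-dependent kinases (CDKs), *MDM2*, the retinoblastoma family genes *RB1* and *RBL2*, and *RGCC*. These are 9 of the 23475 genes with a value, and all 9 were among the 12422 genes whose mean over the 6 libraries reached 0.5 FPKM, the filter on low values. Of these, 8 were taken by gene family and symbol, but the families were not taken whole. *CDKN2A*, *CDKN2B* and *RBL1* were left out and are described further below. *RGCC* was chosen by its rise in this same comparison, so its values are given as a description with no test.

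The cells were isolated from the subcutaneous fat of calves and kept in high-glucose DMEM with fetal bovine serum and Pen-strep. They were transfected either with bta-miR-484 agomir, a chemically modified double-stranded RNA that supplies the miRNA, or with agomir NC, the negative control molecule. RNA was collected 48 h after transfection from 3 samples of each group, to learn how the mRNA profile differs when bta-miR-484 is in excess. The calves were as many as the samples of a group, but no source says if the 3 samples under each treatment are different calves or repeated cultures, so p-values measure the spread between these samples only, which may be technical. The level of bta-miR-484 itself was not analysed here.

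Expression is given as FPKM, fragments per kilobase of transcript, scaled to the mapped fragments of each library, which can be set side by side between genes because it is per length. The read depth of the libraries is unknown. The 6 libraries summed to 365977 to 379361 FPKM and listed 16207 to 16360 genes above 0, and no library was a copy of another. Differences are log2 fold changes of agomir over agomir NC on the log2(FPKM + 0.5) scale, which understates differences of genes at low FPKM. They were tested with limma, and p was adjusted over all 12422 genes.

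The samples are labelled adipocytes, and the study also calls them preadipocytes. Of 12 genes listed for preadipocytes and stromal cells, 10 reached a mean of 0.5 FPKM, with a summed level of 23747 ± 533 FPKM in the agomir group and 23754 ± 593 FPKM in the agomir NC group (SD, n = 3 each). The most abundant was *COL3A1*, a fibrillar collagen gene, at a mean of 7623 FPKM, and *PDGFRA*, a receptor gene of fat progenitors, lay between 162 and 172 FPKM. *DLK1*, a preadipocyte gene in other species, was listed at 0 in all 6 libraries. Of 10 mature adipocyte genes, 6 reached that mean, and all 10 summed to 9.89 ± 0.855 FPKM with agomir and 10.2 ± 0.749 FPKM with agomir NC (SD, n = 3 each). The most abundant of them was *LPL* at a mean of 3.73 FPKM. The defining adipocyte genes *ADIPOQ* and *LEP* did not exceed 0.197 and 0.0368 FPKM in any library. Others of this list were low but not absent, with means of 2.39 FPKM for *FABP4*, 1.27 for *CIDEA* and 1.23 for *PLIN1*. Collagen and other stromal genes were thus abundant in both groups, and mature adipocyte genes were low. Some genes of the first list were not abundant either, with means of 5.65 FPKM for *ZNF423*, 3.55 for *PPARG* and 0.481 for *CD34*. Within these lists *PPARG* had a log2 fold change of 0.23 (limma, adjusted p = 0.407), *DCN* one of -0.12 (adjusted p = 0.376) and *FABP4* one of -0.49 (adjusted p = 0.363). These 3 of the 16 genes tested passed an unadjusted p of 0.05 (18.8%, against 10.9% of all genes). The groups lay apart for 4 of the 16 (25%, against 17.2% of all genes), lower with agomir for *DCN* and higher for *PPARG*, *ZNF423* and *CIDEA*. These are bulk samples, in which fewer cells of a type and less RNA per cell cannot be told apart.

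The cell cycle is driven by cyclins bound to CDKs. Inhibitors of the Cip/Kip family (*CDKN1A*, *CDKN1B*, *CDKN1C*) bind several cyclin and CDK complexes, whereas those of the INK4 family (*CDKN2C*, *CDKN2D*) bind CDK4 and CDK6, and both restrain the phosphorylation of retinoblastoma proteins, which otherwise hold E2F transcription factors in check. *MDM2* encodes a ubiquitin ligase, an enzyme that marks proteins for degradation. In fat precursors, leaving the cell cycle is part of the path to differentiation, and both retinoblastoma proteins and CDK inhibitors act there.

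None of the 8 genes differed between the groups beyond the spread of the samples. Among genes of the same families outside the 8, *CDKN2B* passed an unadjusted p of 0.05 (log2 fold change 0.32, limma, adjusted p = 0.366). *CDKN2A* and *RBL1* did not. With limma, 0 of 8 passed an adjusted p of 0.05 and 0 of 8 passed an unadjusted p of 0.05, the lowest adjusted p being 0.709 for *RB1*. Of all genes tested, 1 passed the adjusted threshold (0.00805%) and 1359 passed the unadjusted one (10.9%), of which 824 were higher with agomir (6.63%) and 535 lower (4.31%). That 1 gene was *TRAPPC4*, and the count was 0 with no filter, with no variance trend and with a replicate block. With single libraries left out, *TRAPPC4* passed only without agomir NC replicate 3, where the count was 2. The count was 0 without agomir replicate 1 or agomir NC replicate 2, and a single different gene passed in each of the other cases. In direction, 4 of the 8 genes were higher with agomir and 4 lower, with a median log2 fold change of -0.00061 against 0.013 over all genes. The groups overlapped for each of the 8, so 0 of 8 had groups apart, against 2141 of all genes tested (17.2%).

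**Figure D1:**
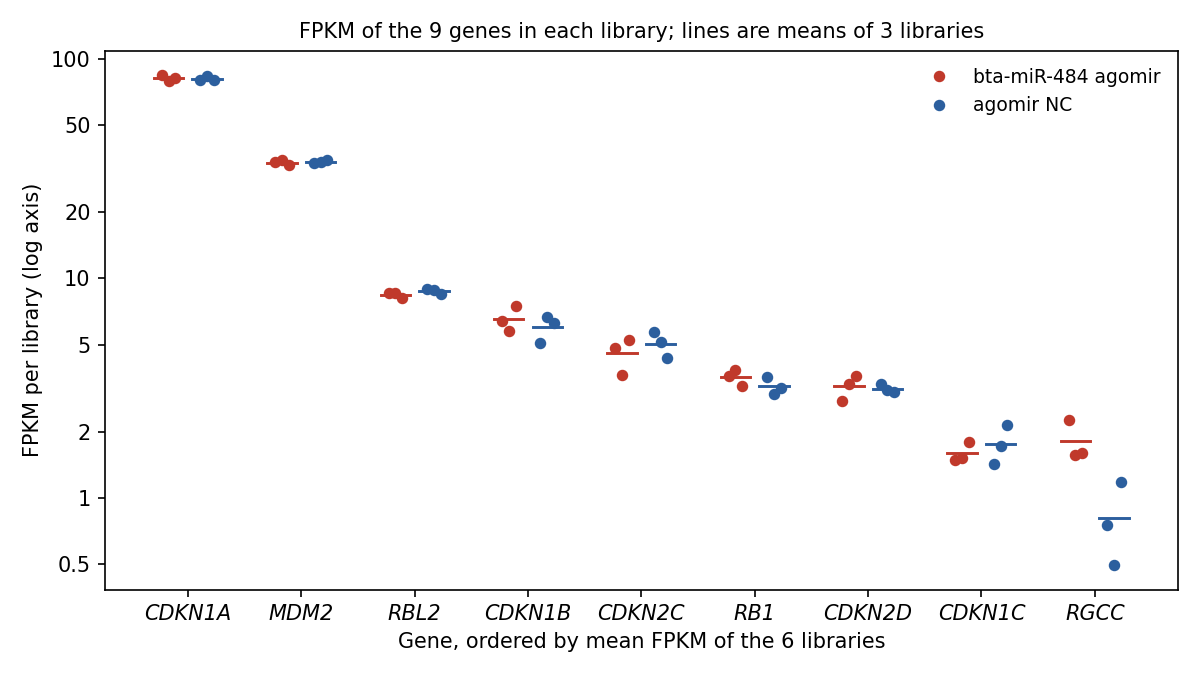
FPKM of the 9 genes in each of the 6 libraries on a log axis, with agomir libraries in red, agomir NC libraries in blue and lines at the means of 3 libraries. *CDKN1A* lies near 81 FPKM in both groups, the colours overlap for 8 genes, and they lie apart for *RGCC*, which was chosen by that difference.

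*CDKN1A*, whose protein halts the cycle after DNA damage, was the most abundant of the 9 genes. Its 3 agomir libraries read 83.8, 79.4 and 81.8 FPKM, and its 3 agomir NC libraries 79.6, 83.4 and 79.9 FPKM. All 6 values lay within 1.06-fold of each other, and the groups interleaved. On average the gene stood at 81.7 ± 2.22 FPKM with agomir and 81.0 ± 2.08 FPKM with agomir NC (SD, n = 3 each). This is a log2 fold change of 0.012 with SE 0.042 (limma, adjusted p = 0.949), whose sign turned with median-ratio scaling (-0.0045). That scaling shifted the median of all genes by -0.015, so the turn says nothing particular about *CDKN1A*. The 95% interval of the fold, 0.944 to 1.08, was among the narrow ones here. The spread of *CDKN1A* between libraries of a group stood at the 6.22 percentile of all genes tested. By mean level it ranked 674 of 12422.

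*CDKN1B*, the inhibitor that accumulates in resting cells, was at 6.37, 5.75 and 7.49 FPKM with agomir and at 5.10, 6.67 and 6.26 FPKM with agomir NC. The highest value was an agomir library and the lowest an agomir NC library, with the other 4 mixed between them. The log2 fold change was 0.11 with SE 0.12 (limma, adjusted p = 0.770), and the interval of the fold ran from 0.900 to 1.298. The log2 fold change was 0.0070 without agomir NC replicate 1 and 0.017 without agomir replicate 3. *CDKN1C*, an imprinted gene and the scarcest of the 5 inhibitors, was at 1.49, 1.53 and 1.81 FPKM with agomir and at 1.43, 1.73 and 2.16 FPKM with agomir NC. Both the lowest and the highest library belonged to the agomir NC group. Its log2 fold change was -0.097 with SE 0.14 (limma, adjusted p = 0.846), which became 0.022 without agomir NC replicate 3, and its fold interval was 0.750 to 1.16.

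Of the INK4 inhibitors, *CDKN2C* was at 4.82, 3.62 and 5.25 FPKM with agomir and at 5.70, 5.11 and 4.34 FPKM with agomir NC. Agomir replicate 2 was the lowest library, and the remaining values overlapped. The log2 fold change of -0.14 (SE 0.14, limma, adjusted p = 0.755; fold interval 0.734 to 1.12) was 0.0017 without that library. *CDKN2D* was at 2.76, 3.32 and 3.61 FPKM with agomir and at 3.31, 3.11 and 3.03 FPKM with agomir NC, so that the agomir values enclosed those of the control. Its log2 fold change was 0.025 with SE 0.11 (limma, adjusted p = 0.957), with a fold interval of 0.861 to 1.203 and a value of -0.048 without agomir replicate 3.

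Summed, the 5 inhibitors stood at 99.3, 93.6 and 99.9 FPKM with agomir and at 95.2, 100.005 and 95.7 FPKM with agomir NC. The mean sums were 97.6 ± 3.48 and 97.0 ± 2.64 FPKM (SD, n = 3 each; exact permutation test, two-sided, p = 1). *CDKN1A* made up 83.7 ± 1.62% of that sum with agomir and 83.5 ± 0.147% with agomir NC (SD, n = 3 each). The sum leaves out *CDKN2A* and *CDKN2B*, at means of 32.8 and 12.8 FPKM. *CDKN1B* made up 6.68 ± 0.712% and 6.19 ± 0.727%, and *CDKN2C* 4.66 ± 0.711% and 5.21 ± 0.736%. The level of *CDKN1A* was 12.6 ± 1.51 times that of *CDKN1B* with agomir and 13.6 ± 1.74 times with agomir NC (SD, n = 3 each; exact permutation p = 0.6). The kinase gene *CDK4*, whose product the INK4 proteins bind, had a level 0.454 ± 0.0110 times that of *CDKN1A* with agomir and 0.464 ± 0.0446 times with agomir NC (exact permutation p = 0.9).

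*MDM2*, the ubiquitin ligase gene, was at 33.7, 34.6 and 32.7 FPKM with agomir and at 33.4, 33.9 and 34.6 FPKM with agomir NC. The 6 libraries differed by at most 1.06-fold, and the groups interleaved. The group means, 33.7 ± 0.977 and 34.0 ± 0.590 FPKM (SD, n = 3 each), gave a log2 fold change of -0.013 (SE 0.046, limma, adjusted p = 0.949) that became 0.0077 without agomir replicate 3. The fold interval was 0.922 to 1.06, and the spread within groups stood at the 4.53 percentile of all genes. *MDM2*, *CDKN1A* and *RBL2* were the steadiest of the 9 genes by this measure.

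*MDM4*, which encodes a relative and partner of MDM2, was at 18.0, 19.5 and 20.2 FPKM with agomir and at 18.9, 18.8 and 15.8 FPKM with agomir NC. Its groups overlapped, the agomir NC group including the lowest library (log2 fold change 0.11, limma, adjusted p = 0.653; 0.025 without that library). The ratio of *MDM2* to *MDM4* was 1.76 ± 0.125 with agomir and 1.92 ± 0.233 with agomir NC (SD, n = 3 each; exact permutation p = 0.5).

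*RB1*, the retinoblastoma gene, was at 3.59, 3.84 and 3.24 FPKM with agomir and at 3.55, 2.99 and 3.18 FPKM with agomir NC. The upper pair of values were agomir libraries, while agomir NC replicate 1 lay above agomir replicate 3. The group means, 3.56 ± 0.301 and 3.24 ± 0.285 FPKM (SD, n = 3 each), gave a log2 fold change of 0.12 with SE 0.10 (limma, adjusted p = 0.709; fold interval 0.929 to 1.27). It ranged from 0.068 to 0.18 with single libraries left out. *RB1* overlaps *LPAR6*, a receptor gene inside it, in the RefSeq annotation. *LPAR6* was at 0.314, 0.415 and 0.798 FPKM with agomir and at 0.404, 0.434 and 0.690 FPKM with agomir NC.

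*RBL2* encodes the retinoblastoma relative that joins E2F4 in the DREAM complex, which silences cell cycle genes in resting cells. It was at 8.60, 8.57 and 8.15 FPKM with agomir and at 8.93, 8.89 and 8.48 FPKM with agomir NC. The upper pair of libraries were controls and the lowest an agomir library, but agomir NC replicate 3 lay below agomir replicates 1 and 2. The group means, 8.44 ± 0.250 and 8.77 ± 0.247 FPKM (SD, n = 3 each), gave a log2 fold change of -0.052 with SE 0.064 (limma, adjusted p = 0.810; fold interval 0.873 to 1.07). With single libraries left out it ranged from -0.074 to -0.029. *RBL2* overlaps *AKTIP* in RefSeq, which was at 5.08, 6.13 and 5.32 FPKM with agomir and at 6.73, 5.16 and 6.01 FPKM with agomir NC (limma, adjusted p = 0.770). Whether the libraries kept the strand is not stated, and without strand the reads of overlapping genes cannot be told apart. The other 7 genes overlap none.

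The ratio of *RBL2* to *RB1* put the small opposite differences of the pair together. It was 2.40, 2.23 and 2.51 with agomir and 2.52, 2.98 and 2.67 with agomir NC, so the highest agomir library lay just under the lowest control. The mean ratios were 2.38 ± 0.142 and 2.72 ± 0.234 (SD, n = 3 each), with an exact permutation p of 0.1, the smallest that 3 against 3 libraries can give. This was 1 of 12 sums, shares and ratios compared, chosen after the values had been seen, and with Benjamini-Hochberg adjustment over the 12 every exact permutation p was 1. The third member of the family, *RBL1*, was at 3.45, 3.82 and 3.78 FPKM with agomir and at 3.75, 3.56 and 3.89 FPKM with agomir NC (log2 fold change -0.018, limma, adjusted p = 0.963). *RBL1* was thus at about the level of *RB1*, and its groups overlapped.

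*RGCC* encodes a regulator of the cell cycle that binds CDK1, and it is also abundant in capillary endothelium. It was at 2.28, 1.58 and 1.60 FPKM with agomir and at 0.755, 0.496 and 1.19 FPKM with agomir NC. Every agomir library lay above every control, the gap being set by agomir NC replicate 3 at 1.19 FPKM, and agomir replicate 1 was the highest. Its mean was 1.82 ± 0.396 FPKM with agomir and 0.814 ± 0.351 FPKM with agomir NC (SD, n = 3 each). That is a log2 fold change of 0.84, or 1.79-fold, on the log2(FPKM + 0.5) scale, while the ratio of the mean FPKM was 2.24, a log2 ratio of 1.16. It was 0.66 without agomir NC replicate 2 and 1.04 without agomir NC replicate 3. Since *RGCC* was selected on this difference, nothing is read from its size.

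By the mean over the 6 libraries *RGCC* was the scarcest of the 9 genes, ranking 10957 of 12422. With agomir alone its mean of 1.82 FPKM lay above that of *CDKN1C* at 1.61 FPKM. The ranges overlapped there and *RGCC* was chosen by its rise, so nothing is read from this order. *RGCC* was also the least steady of the 9. Its coefficient of variation was 21.8% among agomir libraries and 43.1% among agomir NC libraries. On the log2 scale its spread within groups stood at the 96.5 percentile of all genes tested. *TRAPPC4*, the gene past the adjusted threshold, was at 15.0, 15.3 and 15.5 FPKM with agomir and at 9.43, 9.89 and 10.2 FPKM with agomir NC.

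Endothelial genes were checked beside *RGCC*. Of 12 such genes, 2 reached a mean of 0.5 FPKM, *VWF* at 3.39 FPKM and *TEK*, a receptor gene. All 12 summed to 5.10, 4.28 and 4.95 FPKM with agomir and 5.01, 5.12 and 5.07 FPKM with agomir NC. *ERG*, an endothelial transcription factor gene singled out after its values were seen, was below the filter and was not tested. It lay at 0.0935, 0.123 and 0.0862 FPKM with agomir and at 0.0604, 0.0470 and 0.0469 FPKM with agomir NC, with groups apart. The other endothelial genes had overlapping groups or no values above 0, and their means lay in either direction. *EGFL7* had means of 0.234 FPKM with agomir and 0.474 with agomir NC, *CDH5* 0.0835 and 0.159, *PECAM1* 0.0798 and 0.114, and *TIE1* 0.276 and 0.206. In single libraries *PECAM1* and *CDH5* did not exceed 0.147 and 0.182 FPKM, and *EMCN* and *CLDN5* were listed at 0 in all 6 libraries. Leukocyte genes summed to 8.39 ± 0.764 FPKM with agomir and 8.47 ± 0.330 FPKM with agomir NC, most of it *CD14*, with *PTPRC* at no more than 0.119 FPKM and *C1QA*, *C1QB* and *C1QC* listed at 0. Smooth muscle and pericyte genes summed to 228 ± 4.78 and 233 ± 15.8 FPKM, of which *ACTA2* was 207 FPKM. Skeletal muscle genes summed to 0.0401 ± 0.0387 and 0.0722 ± 0.0663 FPKM, and mesothelial and epithelial genes to 1.76 ± 0.257 and 2.03 ± 0.197 FPKM (SD, n = 3 each).

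The genes whose pattern was most like that of *RGCC* over the 6 libraries were sought among 10642 genes with a symbol and a mean of at least 1 FPKM. *TMEM218* came closest, with a Pearson correlation of 0.995 on the log2 scale, at 8.67, 8.04 and 7.87 FPKM with agomir and at 7.001, 6.61 and 7.51 FPKM with agomir NC. It shared with *RGCC* the high agomir replicate 1, the low agomir NC replicate 2 and the control nearest to the agomir group, replicate 3. *PWWP2B-2* (0.995) and *CDADC1* (0.988) followed, the latter at 17.04, 16.6 and 16.7 FPKM with agomir and at 15.3, 14.7 and 16.2 FPKM with agomir NC. The range of *CDADC1* was narrow against that of *RGCC*, because a correlation takes no account of size. The points are the same 6 libraries from which *RGCC* was chosen, and the correlations describe these libraries only. They are the highest of 10642 correlations over 6 points, so nothing is read from their size or from the shared order of libraries.

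By mean FPKM over the 6 libraries the order was *CDKN1A* (81.3), *MDM2* (33.8), *RBL2* (8.60), *CDKN1B* (6.27), *CDKN2C* (4.81), *RB1* (3.40), *CDKN2D* (3.19), *CDKN1C* (1.69) and *RGCC* (1.32). The ranges of neighbours did not overlap at each step from *CDKN1A* down to *CDKN1B*, and again between *CDKN2D* and *CDKN1C*. They overlapped between *CDKN1B* and *CDKN2C*, *CDKN2C* and *RB1*, *RB1* and *CDKN2D*, and *CDKN1C* and *RGCC*, so the order within those pairs is not beyond the spread of the libraries. The order of *CDKN1C* and *RGCC* was opposite in the agomir group, and *RGCC* was chosen by its rise there. *CDKN1A* and *MDM2* thus stood well above the median gene tested (8.36 FPKM), and *RBL2* stood beside it.

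The wider pathway was read from 7 lists that hold 139 genes, 130 of them tested. Of the lists, 5 are described singly. Over all lists, 7 genes were higher with agomir at an unadjusted p of 0.05 (5.38%) and 6 lower (4.62%), together 10% against 10.9% of all genes, and 0 passed an adjusted p of 0.05 (limma, lowest adjusted p 0.218). The groups lay apart for 16 of the 130 genes (12.3%), against 17.2% of all genes. The median log2 fold change was 0.0035. The lower genes numbered 2 without agomir replicate 2 and 3 without agomir NC replicate 3. *CCND1*, *CDK6*, *AURKA*, *COPS5* and *HIPK2* passed the unadjusted threshold with any single library left out, and the other list genes that passed it lost it without at least 1 of the libraries. Shares this near to those of all genes say nothing particular about the lists.

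Of 5 other CDK inhibitors and their partners, 2 were higher (40%, against 6.63% of all genes) and 0 lower (against 4.31%) at an unadjusted p of 0.05, with a median log2 fold change of 0.055. Neither of the 2 held that threshold with every single library left out. *CDKN2AIP*, whose product binds the ARF protein of the *CDKN2A* locus, was at 6.31, 6.10 and 6.67 FPKM with agomir and at 5.44, 5.28 and 5.69 FPKM with agomir NC (log2 fold change 0.20, SE 0.074, limma, adjusted p = 0.392). Its groups lay apart. *CDKN2B*, an INK4 gene named after its values were seen, was at 11.9, 15.6 and 15.4 FPKM with agomir and at 11.7, 9.97 and 12.3 FPKM with agomir NC. There agomir replicate 1 lay among the controls, and the log2 fold change was 0.32 with SE 0.11 (limma, adjusted p = 0.366). Its neighbour *CDKN2A*, named in the same way, was at 30.1, 34.9 and 32.9 FPKM with agomir and at 32.8, 32.6 and 33.8 FPKM with agomir NC, with no separation (log2 fold change -0.020, limma, adjusted p = 0.933). *CDKN2A* and *CDKN2B* were thus both above *CDKN2C* and *CDKN2D* in level, and *CDKN2A* stood near *MDM2*.

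Of 14 cyclins, CDKs and associated genes, most but not all of the first gap phase, 2 were higher at an unadjusted p of 0.05 (14.3%, against 6.63% of all genes) and 1 lower (7.14% against 4.31%), with a median log2 fold change of -0.034. *CCND1*, the cyclin that pairs with CDK4 and CDK6, was at 32.9, 38.6 and 34.8 FPKM with agomir and at 29.0, 30.1 and 25.7 FPKM with agomir NC (log2 fold change 0.32, SE 0.075, limma, adjusted p = 0.252). *CDK6* was at 9.87, 10.9 and 10.5 FPKM with agomir and at 8.75, 8.42 and 8.53 FPKM with agomir NC (log2 fold change 0.27, SE 0.065, limma, adjusted p = 0.257). In both genes every agomir library exceeded every control, and neither passed the adjusted threshold. *CCND3*, another cyclin of this type, lay the other way, at 14.2, 13.3 and 14.6 FPKM against 16.4, 14.9 and 16.1 FPKM (log2 fold change -0.16, SE 0.063, limma, adjusted p = 0.402).

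The kinases that the 5 inhibitors act on otherwise had overlapping groups. *CDK4* was at 37.0, 36.4 and 37.7 FPKM with agomir and at 36.4, 35.3 and 40.9 FPKM with agomir NC (log2 fold change -0.016, limma, adjusted p = 0.952). *CDK2*, the main partner of cyclin E and a target of the Cip/Kip proteins, was at 4.75, 4.90 and 5.40 FPKM with agomir and at 4.55, 5.65 and 4.04 FPKM with agomir NC (log2 fold change 0.082, limma, adjusted p = 0.838). Controls held both its highest and its lowest value. *CDK1*, the mitotic kinase that RGCC binds, was named after its values were seen and lay at 9.97, 8.96 and 10.8 FPKM against 11.8, 10.2 and 10.9 FPKM (log2 fold change -0.14, limma, adjusted p = 0.584). The log2 fold change was -0.074 without agomir replicate 2 and -0.20 without agomir replicate 3, where it passed an unadjusted p of 0.05.

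Among E2F factors and the partners of RB1 and RBL2, 17 of 19 genes were tested, 0 were higher at an unadjusted p of 0.05 (against 6.63% of all genes) and 1 was lower (5.88% against 4.31%), with a median log2 fold change of 0.015. The lower gene was *E2F1*, the activator that RB1 binds, at 1.35, 1.23 and 1.74 FPKM with agomir and at 1.91, 2.13 and 1.77 FPKM with agomir NC. Its groups lay apart by a narrow margin (log2 fold change -0.34, SE 0.13, limma, adjusted p = 0.406). *E2F4*, the partner of RBL2, was at 13.9, 16.1 and 17.6 FPKM with agomir and at 15.5, 13.9 and 15.5 FPKM with agomir NC, with overlapping groups (log2 fold change 0.076, limma, adjusted p = 0.798).

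Of 28 target genes of E2F and of the DREAM complex, 1 was higher (3.57%, against 6.63% of all genes) and 2 were lower (7.14% against 4.31%) at an unadjusted p of 0.05. In direction 9 were higher and 19 lower, with a median log2 fold change of -0.051. The lower ones were 67.9% of this list and 44.9% of all genes, a difference that was not tested. The groups lay apart for 3 of the 28 (10.7%, against 17.2% of all genes), 1 higher with agomir and 2 lower. *AURKA*, a mitotic kinase gene, was at 5.74, 6.68 and 6.23 FPKM with agomir and at 4.95, 4.55 and 4.60 FPKM with agomir NC, with groups apart (log2 fold change 0.37, SE 0.083, limma, adjusted p = 0.231). *PCNA*, the sliding clamp of DNA replication, was at 11.6, 11.7 and 9.38 FPKM with agomir and at 13.5, 11.5 and 15.2 FPKM with agomir NC. Agomir NC replicate 2 lay below agomir replicates 1 and 2, and the log2 fold change was -0.28 with SE 0.11 (limma, adjusted p = 0.412; -0.18 without agomir replicate 3 and -0.19 without agomir NC replicate 3). *CCNB2*, a mitotic cyclin, and *PLK1*, a mitotic kinase, were named after their values were seen. *CCNB2* was at 7.60, 6.67 and 6.63 FPKM against 8.51, 7.52 and 8.56 FPKM (log2 fold change -0.22, SE 0.083, limma, adjusted p = 0.396), whereas *PLK1* was at 7.53, 9.23 and 9.65 FPKM against 9.34, 6.69 and 9.60 FPKM (log2 fold change 0.051, limma, adjusted p = 0.928; -0.11 without agomir NC replicate 2). *PLK1* overlaps *ERN2* in RefSeq, which did not exceed 0.0134 FPKM.

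Some genes of the lists not described singly were named as well. In these lists 6.45% of 31 tested genes and 5.56% of 18 passed an unadjusted p of 0.05, against 10.9% of all genes. *ZMAT3*, which encodes an RNA-binding protein, was at 23.5, 24.8 and 22.3 FPKM with agomir and at 20.98, 21.4 and 21.4 FPKM with agomir NC, with groups apart (log2 fold change 0.14, SE 0.054, limma, adjusted p = 0.399). *BAX*, an apoptosis gene named after its values were seen, was at 48.3, 46.3 and 50.8 FPKM with agomir and at 58.7, 53.6 and 50.2 FPKM with agomir NC (log2 fold change -0.16, SE 0.063, limma, adjusted p = 0.409; -0.098 without agomir NC replicate 1). Agomir NC replicate 3 lay below agomir replicate 3, so its groups overlapped. *BAX* overlaps *TULP2* in RefSeq, which did not exceed 1.17 FPKM. The abundant genes *CCNG1* and *PHLDA3*, at means of 156 and 122 FPKM, had log2 fold changes of 0.10 and -0.021 and overlapping groups. They too were named after their values were seen.

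*HIPK2*, a nuclear kinase gene from the same lists, was at 0.560, 0.399 and 0.551 FPKM with agomir and at 1.34, 0.828 and 0.819 FPKM with agomir NC. Its groups lay apart at levels near the filter (log2 fold change -0.56, SE 0.17, limma, adjusted p = 0.330), and the log2 ratio of its mean FPKM was -0.98. Of 17 genes for the turnover and transcription of the Cip/Kip inhibitors, 1 was higher (5.88%, against 6.63% of all genes) and 0 were lower (against 4.31%) at an unadjusted p of 0.05, with a median log2 fold change of 0.0020. *COPS5*, a subunit gene of the COP9 signalosome whose product promotes export and breakdown of the CDKN1B protein, was at 38.2, 38.1 and 40.1 FPKM with agomir and at 34.1, 33.5 and 31.9 FPKM with agomir NC. Its groups lay apart (log2 fold change 0.22, SE 0.048, limma, adjusted p = 0.218). *COPS5* overlaps *CSPP1* in RefSeq, which was at 3.53 to 4.06 FPKM over the 6 libraries. *CCND1*, *CDK6*, *CDKN2AIP*, *ZMAT3*, *HIPK2*, *CCNB2*, *MDM4*, *CDK1* and *PPARG* overlap RefSeq genes whose symbols match no gene with a value here.

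**Figure D2:**
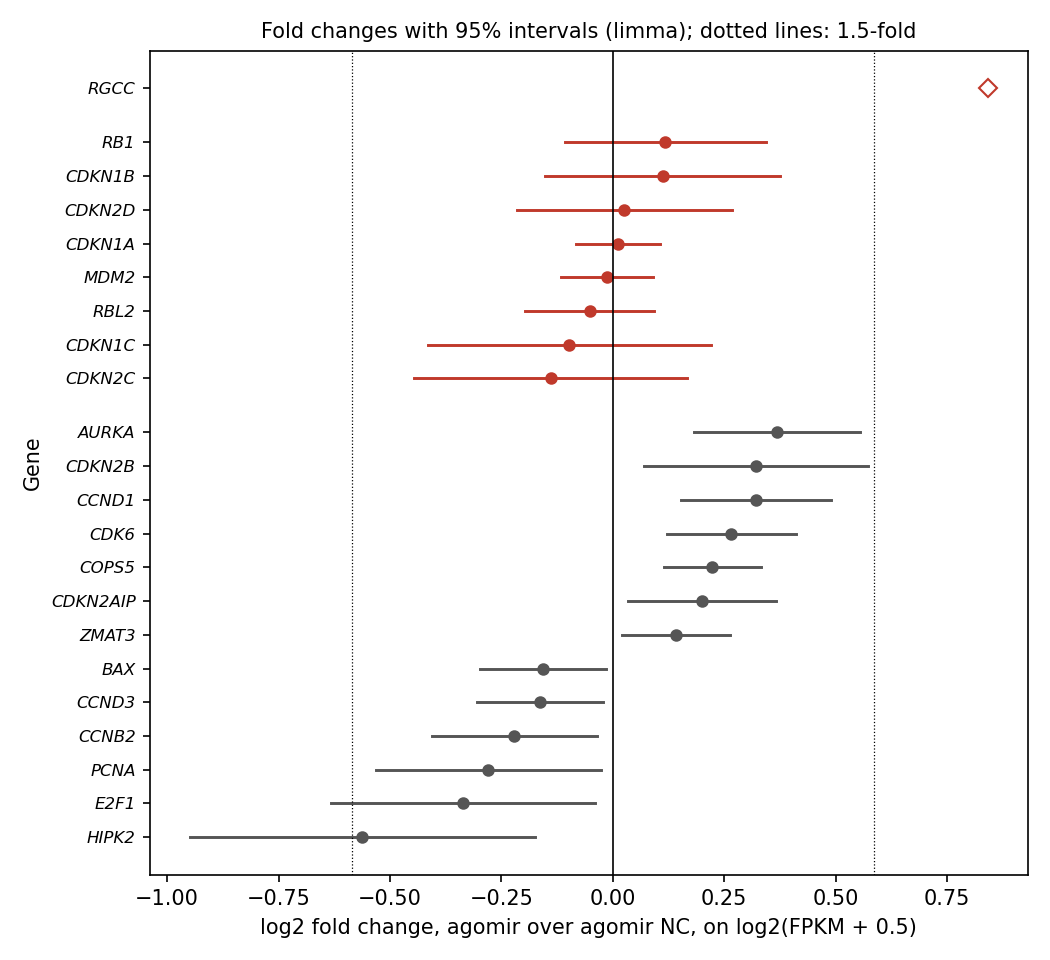
Log2 fold changes of agomir over agomir NC on the log2(FPKM + 0.5) scale for the 8 tested genes (red, 95% limma intervals), for *RGCC* (open diamond, no interval because it was chosen by its rise) and for the pathway genes at an unadjusted p of 0.05 (grey). The intervals of the 8 genes all include 0 and lie within the dotted lines at 1.5-fold, and *RGCC* stands at 0.84.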

How the data were processed

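RNA from 3 samples transfected with bta-miR-484 agomir and 3 with agomir NC had been sequenced on an Illumina HiSeq. For each gene the authors gave 1 FPKM value in every library, normalized for transcript length and mapped fragments. The submitters' processing notes name fastp, HISAT2 and StringTie and the build ARS-UCD 1.2, without tool versions. The values of 2041 low genes showed no steps of whole reads (at most 8 genes shared a bin 0.002 wide), so depth is unknown and no counting error can be given.

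Groups were compared with limma 3.58.1 in R 4.3.3 on log2(FPKM + 0.5), for genes whose mean reached 0.5 FPKM, by a two-sided moderated test that lets the variance follow the mean level. Adjustment was by Benjamini-Hochberg over all 12422 genes tested. Intervals are 95%. Ratios and sums were compared by the two-sided exact permutation test over the 20 labelings, whose smallest p is 0.1. The model was also tested on simulated data.

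Members and lists were chosen with earlier results of these data known. Besides the 9 genes, each list's genes with an unadjusted p under 0.05 and groups apart were named, otherwise its 3 most abundant genes. *MDM4*, *CDK2*, *CDK4*, *CCND1*, *PCNA*, *RBL1* and *E2F4* were named whatever their values. Some results under this rule are not reported here. Overlaps between genes come from the RefSeq table of another build of the genome, so no coordinates are given. The alternatives were quantile normalization, median-ratio scaling, array weights, no variance trend, a minimum mean of 1 FPKM or no filter, pseudocounts of 0.1 or 1, a replicate block, leaving out single libraries and, added after seeing the data, the ratio of mean FPKM without a pseudocount.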

Additional observations from a re-analysis of the deposited data

How the results depend on the processing

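The count of 0 among the 8 genes at an unadjusted p of 0.05 was also 0 under each alternative run. The 9 genes gave 144 values of the log2 fold change under the alternatives, of which 6 turned in direction, and 28 other named genes gave 447, of which 11 turned or were 0. The only one of these genes past an adjusted p of 0.05 in any run was *TRAPPC4*, which lost it in 8 of 15 tests. Losses of an unadjusted p of 0.05 are given below. The count of all genes past an adjusted p of 0.05 (limma), 1 as reported, was 0 with no filter and 0 with no variance trend, where 1604 and 1249 genes passed an unadjusted p of 0.05. It ranged from 0 to 2 with a library left out, and the genes that passed differed between these runs. The number of pathway genes lower at an unadjusted p of 0.05, 6 as reported, ranged from 2 to 9 with a library left out, and that of higher ones, 7 as reported, from 5 to 8. Higher ones numbered 9 with no variance trend.

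With the replicate number as a replicate block the count past an adjusted p was 0, with 1260 genes at an unadjusted p of 0.05, and 0 of the 8 genes. Same-numbered libraries deviated from their group means with correlations of -0.051, 0.053 and 0.039. Whether they share an origin is not stated.

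Directions turned mostly for genes near no difference. *CDKN1A* was at -0.0045 with median-ratio scaling, which shifted the median of all genes by -0.015. With quantile normalization *PHLDA3* was at 0.0064 and *DCN*, which ranked 7 by mean level, at 0. This normalization gives equal values to a gene of the same rank in every library. The 0 of *DCN* is thus not read as a turn in direction. Leaving out single libraries, the log2 fold change ranged from -0.0068 to 0.033 for *CDKN1A*, -0.21 to 0.022 for *CDKN1C*, -0.24 to 0.0017 for *CDKN2C*, -0.048 to 0.12 for *CDKN2D* and -0.034 to 0.0077 for *MDM2*. It ranged from -0.017 to 0.20 for *CDK2*, -0.058 to 0.047 for *CDK4*, -0.049 to 0.023 for *RBL1*, -0.0023 to 0.17 for *E2F4*, -0.070 to 0.037 for *CDKN2A*, -0.051 to 0.029 for *PHLDA3* and -0.11 to 0.15 for *PLK1*. As ratios of mean FPKM without a pseudocount, chosen after seeing the data, the log2 values were 1.16 for *RGCC* and -0.98 for *HIPK2*, since the pseudocount shrinks folds at low levels. For the others the cause was not tested.

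Of the pathway genes at an unadjusted p of 0.05, *CCND1*, *CDK6*, *AURKA* and *COPS5* were so in all 15 alternatives with a test and *HIPK2* in all 14 that kept it. This was lost without agomir replicate 1 for *CCND3*, *E2F1*, *ZMAT3* and *BAX*, without agomir replicate 2 for these 4, *CDKN2B* and *CCNB2*, and without agomir replicate 3 for *CDKN2AIP*, *CDKN2B*, *CCNB2* and *PCNA*. It was lost without agomir NC replicate 1 for all 8 of these genes but *CDKN2B*, without agomir NC replicate 2 for *CDKN2AIP*, *E2F1*, *CDKN2B* and *BAX*, and without agomir NC replicate 3 for *CCND3*, *CCNB2* and *PCNA*. *PCNA* lost it with no filter and, like *BAX*, with no variance trend. Of the preadipocyte and stromal list, *DCN* lost it in 5 of 15 tests (including quantile normalization, where it was at 0) and *PPARG* in 3. Of the mature adipocyte list, *FABP4* lost it in 2.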
